A study of Homo sapiens with 6 samples.

Results

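The replication-dependent histone genes were read from a gene count table of human neuroblastoma cell lines. A gene belonged to the set when its symbol began with HIST1H, HIST2H, HIST3H or HIST4H and it was not a pseudogene. The pattern found 73 symbols, of which 3 were pseudogenes, so 70 members remained of the 25370 rows of the table. By class there were 6 H1, 17 H2A, 18 H2B, 14 H3 and 15 H4 genes. By location, 55 belonged to the HIST1 cluster on chromosome 6, 11 to HIST2 and 3 to HIST3 on chromosome 1, and 1 to HIST4 on chromosome 12.

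These genes supply the histones that package newly made DNA, and their messages are made mainly in S phase. H2A, H2B, H3 and H4 form the nucleosome core and H1 binds the linker DNA. Unlike other messages, they are cut after a conserved stem-loop and carry no poly(A) tail, with SLBP holding the stem-loop and the U7 small nuclear ribonucleoprotein directing the cut. Some members are also known to give spliced or longer polyadenylated transcripts, often in cells that have left the cell cycle.

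The study asked what forced expression of LMO1, a LIM-only transcriptional co-regulator, does in MYCN-amplified neuroblastoma cells. It had 2 libraries of BE2C cells overexpressing LMO1, 1 library of unmodified Kelly cells, 1 of unmodified parental BE2C cells and 2 of BE2C cells carrying the vector control. BE2C is a clonal line, and Kelly is a separate MYCN-amplified line. No promoter for the LMO1 construct and no separate cultures are named in the labels, so the spread behind each p-value is that of the libraries and may be technical. Library totals ran from 18737591 to 59512958 counts. LMO1 itself stood at 6.55 and 5.85 CPM (each count taken relative to the library's total, with edgeR's TMM factors) in the LMO1 libraries, 94.1 CPM in Kelly, 1.93 CPM in parental BE2C and 1.05 and 0.926 CPM in the vector libraries, which fits the labels. All 13 neuroblastoma markers were detected in the modified libraries. Among markers of other cell types, CD3E had no count in any library, and PTPRC and COL1A2 stayed at or below 0.282 CPM and 0.0805 CPM. Of the 15 such markers 7 passed the filter on low counts, with 2 called higher and 1 lower with LMO1. The one called lower was COL3A1, with 7.75 and 6.69 CPM in the LMO1 libraries, against 24.5 and 25.8 CPM in the vector libraries. Those called higher were DCN and VWF. DCN stood at 37.0 and 34.0 CPM in the LMO1 libraries, against 18.8 and 20.9 CPM in the vector libraries. VWF stood at 1.57 and 1.72 CPM in the LMO1 libraries, against 0.321 and 0.684 CPM in the vector libraries. COL1A1 had 57.9 CPM in Kelly and 7.60 CPM in parental BE2C, and DCN had 0.201 CPM in Kelly and 102 CPM in parental BE2C. Their part in the histone results was not tested.

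The 6 libraries fell into 2 sets. Several of 35 listed small structured RNAs without a poly(A) tail were abundant in the modified lines and nearly missing in both unmodified ones. Others on the list, such as RNY4 and SCARNA13, had no count in any library. RMRP, the RNA of an RNA-processing ribonuclease, had 10087 and 10787 CPM in the LMO1 libraries, 2.87 CPM in Kelly, 2.95 CPM in parental BE2C and 10531 and 10837 CPM in the vector libraries. RPPH1, the RNA of ribonuclease P, had 2.11 CPM in Kelly, 3.22 CPM in parental BE2C and 22151 and 21754 CPM in the vector libraries. Of the 12 small structured RNAs with at least 5 CPM on either side, all 12 were at least 2-fold lower in parental BE2C than in the vector mean. The labels name the same total RNA kit for all libraries. Which RNA a library kept cannot be told apart from the modification when vector cells are set beside parental BE2C, or from the modification and the cell line when they are set beside Kelly. RMRP and RPPH1 were chosen after their values were seen.

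The 3′ ends and promoters of the members carry the features that set this gene family apart. A stem-loop stands after the stop codon in the GENCODE release 29 transcripts (GRCh38) of 31 members, among the 36 whose annotation runs over 30 bases past the stop. The annotation of many others ends at the stop codon, so no match there says only that the annotated sequence stops short. The form shared by most of the core classes was found in 17 members (6 H2A, 8 H2B and 3 H3), and H4 genes had forms of their own in 8 members. The lines below give 4 of these sites, 5′ to 3′ on the sense strand with 5 flanking bases on each side and the stem-loop in capitals. They show the common form in HIST2H2BE and HIST3H2A, the variant of HIST1H2BD, and an H4 form in HIST1H4E.
HIST2H2BE: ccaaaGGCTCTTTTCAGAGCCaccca
HIST3H2A: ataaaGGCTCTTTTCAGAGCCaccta
HIST1H2BD: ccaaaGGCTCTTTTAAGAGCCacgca
HIST1H4E: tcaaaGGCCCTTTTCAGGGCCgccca
HIST1H3E, an H3 gene to which the text returns, has 1908 annotated bases past its stop codon in which no stem-loop was found.

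Promoters of 65 members were found in the RefSeq table of build GRCh38.p14, which covers 250 bases before to 50 after each start. They were searched on both strands for the CCAAT box (CCAAT), the TATA box (TATAAA) and the octamer (ATTTGCAT), and a TATA match on one strand can overlap one on the other. A CCAAT box was present in 84.6% of the members' promoters, against 34.6% of all 35116 promoters. It was present in every promoter matched in classes H1, H2A, H2B and H3, and in 3 of 13 H4 promoters. A TATA box was present in 66.2% of members and 11.5% of all promoters. The octamer, read by the factor POU2F1, was present in 40.0% of members and 1.77% of all promoters, and lay in 14 of 18 H2B and 11 of 16 H2A promoters. It was found in 1 of 12 H3 promoters and in no H1 or H4 promoter. A match is a description of the sequence and not a mapped site. The 3 promoters below are those of the H2B gene with the highest fold change with LMO1 (HIST1H2BE, chr6:26183511-26183810, plus strand), of an H2B gene in the HIST2 cluster whose level hardly differed (HIST2H2BE, chr1:149886633-149886932, minus strand), and of an H4 gene with none of the motifs (HIST1H4E, chr6:26204360-26204659, plus strand). Each runs 5′ to 3′ on the gene's strand, with matches on either strand in capitals.
HIST1H2BE: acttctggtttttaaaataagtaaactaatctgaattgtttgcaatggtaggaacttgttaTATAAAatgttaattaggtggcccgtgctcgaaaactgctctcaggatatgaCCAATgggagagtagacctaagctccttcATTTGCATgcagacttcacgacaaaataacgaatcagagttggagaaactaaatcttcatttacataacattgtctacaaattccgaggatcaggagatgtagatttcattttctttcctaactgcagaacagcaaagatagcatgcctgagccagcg
HIST2H2BE: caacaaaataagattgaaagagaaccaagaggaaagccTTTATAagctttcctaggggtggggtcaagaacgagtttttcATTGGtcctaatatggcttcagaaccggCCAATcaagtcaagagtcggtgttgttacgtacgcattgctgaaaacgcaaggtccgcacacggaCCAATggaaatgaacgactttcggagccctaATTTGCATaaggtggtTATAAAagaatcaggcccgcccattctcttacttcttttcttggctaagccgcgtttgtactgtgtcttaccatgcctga
HIST1H4E: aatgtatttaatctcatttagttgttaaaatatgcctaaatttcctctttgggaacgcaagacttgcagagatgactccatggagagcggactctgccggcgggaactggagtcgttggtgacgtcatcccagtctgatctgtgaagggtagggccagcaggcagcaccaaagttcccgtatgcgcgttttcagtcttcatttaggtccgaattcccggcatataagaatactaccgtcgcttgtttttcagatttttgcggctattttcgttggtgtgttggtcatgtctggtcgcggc
Both H2B promoters hold all 3 motifs. Among the H2B genes, 9 of the 13 called higher with LMO1 and all 4 that were tested and not called held the octamer.

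Not every member could be measured. A filter on low counts left 55 members in the test, and 15 were not tested. Of the 70, 8 had no count in any library. These include 3 pairs of near-identical HIST2 copies, HIST2H2AA3 with HIST2H2AA4, HIST2H3A with HIST2H3C and HIST2H4A with HIST2H4B, whose coding sequences are the same within each pair. Counts of 0 in these copies do not show silence, since how reads matching several places were handled is not given in the sources used here. Over the coding sequence, 9 members shared every 50-base window with another gene and 33 shared none. HIST1H2AD shared 98.0% of its windows and had 1 to 9 counts in each library. It overlaps another annotated gene, AL031777.3, on the same strand. HIST1H3D overlaps the same gene and shared 100% of its windows, yet had 3903 to 5205 counts in each modified library. HIST1H1T, a testis-specific linker histone, had 0 to 8 counts in each library. The other members not tested were HIST1H1A, HIST1H2AA, HIST1H2BA, HIST1H4F, HIST1H4G, HIST1H4L and HIST3H3, with at most 3 counts in any modified library. Changes are therefore read within a gene. Class sums and rankings by CPM use the counts as deposited and carry this limit.

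Forced LMO1 was set against the vector control in the only replicated comparison, with edgeR's quasi-likelihood test and Benjamini-Hochberg adjustment over 15480 genes. Of the 55 members tested, 44 were called higher with LMO1 at an adjusted p below 0.05, when 15.9% of all genes tested were called higher. A single member, HIST1H3E, was called lower, when 15.1% of all genes were, and 10 were not called. The median log2 fold change of the members was 0.26, against 0.00083 for all genes tested, and the members ran from -0.70 to 1.09. Both LMO1 libraries lay above both vector libraries in 48 of 55 members, against 31.3% of all genes tested, and below both in 4 members, against 32.4%.

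Summed over all members, histone messages made up 12084 and 12148 CPM in the LMO1 libraries, against 10147 and 10299 CPM in the vector libraries. The ratio of the means was 1.19, and no LMO1 library overlapped a vector library. H3 genes summed to 2166 ± 68.3 CPM with LMO1 and 1635 ± 23.6 CPM with the vector (SD, n = 2 each), a ratio of 1.32. H4 genes summed to 2112 ± 22.7 CPM with LMO1 and 1766 ± 9.26 CPM with the vector, a ratio of 1.196. H1 genes summed to 2213 ± 16.9 CPM with LMO1 and 1888 ± 48.9 CPM with the vector, a ratio of 1.17. H2A and H2B gave ratios of 1.15 and 1.13. In every class the sums of the 2 groups were separate, and H3 had the highest ratio in each of the scalings and left-out libraries tried. No test was run on these sums.

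**Figure D1:**
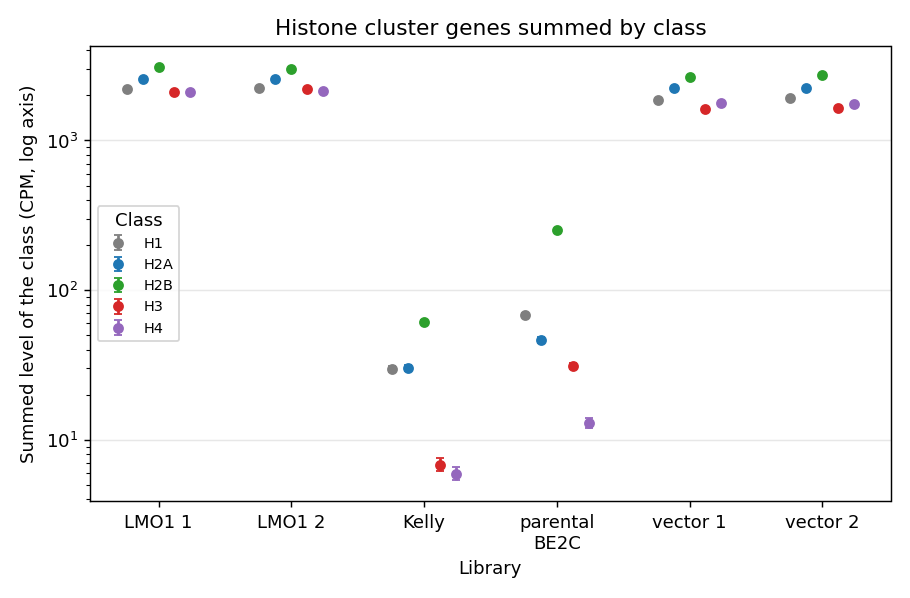
Summed level of each histone class in each library (CPM, log axis), with LMO1 libraries at the left, then Kelly, parental BE2C and the vector libraries; bars are exact Poisson intervals (95%, counting error only) and are mostly smaller than the points. The LMO1 sums lie above the vector sums in every class, and the parental and Kelly sums lie 10.7-fold or more below the vector mean.

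All 4 H1 genes tested were called higher. HIST1H1D, a linker histone, had 166 and 168 CPM in the LMO1 libraries, against 98.3 and 94.1 CPM in the vector libraries. The 2 groups were far apart relative to their spread, with a log2 fold change of 0.80 (SE 0.0434, edgeR adjusted p = 2.13e-20). HIST1H1B had 385 and 396 CPM in the LMO1 libraries, against 282 and 294 CPM in the vector libraries, a log2 fold change of 0.45 (SE 0.0316, adjusted p = 2.94e-16). The remaining linker genes changed less. HIST1H1C had 883 and 892 CPM in the LMO1 libraries, against 793 and 835 CPM in the vector libraries, a log2 fold change of 0.13 (adjusted p = 8.17e-05). Its adjusted p was 0.0531 when vector replicate 1 was left out. HIST1H1E had a log2 fold change of 0.16 (SE 0.0262, adjusted p = 2.97e-06).

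Of the H2A genes, 10 of 13 tested were called higher and 3 were not called, with a median log2 fold change of 0.29. HIST1H2AC had 301 and 305 CPM in the LMO1 libraries, against 253 and 246 CPM in the vector libraries, a log2 fold change of 0.29 (SE 0.0330, adjusted p = 1.03e-09). HIST1H2AG and HIST1H2AM had log2 fold changes of 0.26 and 0.18, both called. HIST2H2AC, from the chromosome 1 cluster, had 493 and 495 CPM in the LMO1 libraries, against 474 and 480.3 CPM in the vector libraries. Its LMO1 libraries also lay above its vector libraries, but by little, and it was not called (log2 fold change 0.06, SE 0.0283, adjusted p = 0.127). The other H2A genes not called were HIST2H2AB at 0.04 and HIST3H2A at -0.09.

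Of 17 H2B genes tested, 13 were called higher and 4 were not, with a median of 0.19. HIST1H2BE had 28.4 and 27.2 CPM in the LMO1 libraries, against 12.7 and 13.4 CPM in the vector libraries. Both LMO1 libraries were far above both vector libraries, with a log2 fold change of 1.09 (SE 0.103, adjusted p = 3.96e-12). An antisense gene, AL353759.1, overlaps its annotated transcript, and the strand setting of the counting is not given. HIST1H2BH had 141 and 133 CPM in the LMO1 libraries, against 75.4 and 76.2 CPM in the vector libraries, a log2 fold change of 0.86 (SE 0.0479, adjusted p = 5.63e-20). HIST1H2BI had 107 and 101 CPM in the LMO1 libraries, against 54.4 and 61.1 CPM in the vector libraries, a log2 fold change of 0.85 (SE 0.0566, adjusted p = 3.80e-17). At the other end, HIST2H2BE had 559.7 and 544 CPM in the LMO1 libraries, against 547 and 560.3 CPM in the vector libraries, and the 2 groups overlapped (log2 fold change 0.0011, SE 0.0280, adjusted p = 0.983). HIST1H2BK, with 450.0 and 452 CPM in the LMO1 libraries, against 419 and 435 CPM in the vector libraries, was called at a log2 fold change of 0.08 (adjusted p = 0.0232). Without vector replicate 1 its adjusted p was 0.368. The other H2B genes not called were HIST2H2BF at 0.04, HIST1H2BO at 0.04 and HIST1H2BB at -0.70, the last with an SE of 0.427 on 30 to 34 counts in each vector library.

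In class H3, 8 of 11 genes tested were called higher and 1 lower, with a median of 0.36. HIST1H3I had 41.5 and 41.4 CPM in the LMO1 libraries, against 21.7 and 22.6 CPM in the vector libraries, a log2 fold change of 0.91 (SE 0.0824, adjusted p = 1.02e-12). HIST1H3G and HIST1H3F followed at 0.70 and 0.68. HIST1H3F had 386 and 410.2 CPM in the LMO1 libraries, against 249.9 and 251 CPM in the vector libraries. HIST1H3B, by contrast, changed by 0.26 with 633 and 649 CPM in the LMO1 libraries, against 525 and 549 CPM in the vector libraries. HIST1H3E was the single member called lower, with 10.3 and 9.29 CPM in the LMO1 libraries, against 13.7 and 11.99 CPM in the vector libraries. The groups did not overlap, and its log2 fold change was -0.39 (SE 0.137, adjusted p = 0.0256). With LMO1 replicate 2 left out the adjusted p was 0.174, with vector replicate 1 left out 0.227, and with DESeq2 0.0847, so the call rests on these libraries and on the test. HIST2H3D at 0.06 and HIST1H3C at -0.25, which had 8 to 12 counts in each modified library, were not called.

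Of 10 H4 genes tested, 9 were called higher, with a median of 0.30 and a range from 0.19 to 0.49. HIST1H4E had 596 and 591 CPM in the LMO1 libraries, against 523 and 523 CPM in the vector libraries, a log2 fold change of 0.19 (SE 0.0274, adjusted p = 2.58e-07). HIST1H4C had 358 and 356 CPM in the LMO1 libraries, against 299 and 291 CPM in the vector libraries, a log2 fold change of 0.28. HIST1H4H and HIST1H4I changed by 0.31 and 0.36, both called. HIST1H4J and HIST1H4K, whose coding sequences are identical, gave 0.49 and 0.41 and cannot be told apart by reads within that sequence. HIST4H4, the lone member on chromosome 12, had a log2 fold change of 0.21 and was not called (adjusted p = 0.0611).

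The members were then read by their place on the chromosomes. In HIST1, 43 of 47 genes tested were called higher and 1 lower, with a median log2 fold change of 0.29. Of all genes tested, 15.9% were called higher and 15.1% lower. In HIST2, none of 5 was called with edgeR or DESeq2, when edgeR called 31% of all genes tested in either direction. With 5 genes, a lack of calls says little against that share. None had an unadjusted edgeR p below 0.05, and their log2 fold changes lay between 0.0011 and 0.06. With scaling to total counts, HIST2H2AC was called at 0.08. Of the 2 HIST3 genes tested, also on chromosome 1, HIST3H2BB was called higher at 0.19 (edgeR adjusted p = 0.00504) and HIST3H2A was not called. No test of the difference between the clusters was run. Within HIST1, the 7 neighbouring members from HIST1H1D to HIST1H2BI included 5 that were tested, and these had log2 fold changes between 0.68 and 0.86, against a median of 0.28 over the other 42 HIST1 members. The member just before the stretch, HIST1H3E, was at -0.39, and the one just after it, HIST1H4H, at 0.31. This stretch was chosen after its values were seen, and 5 of the 7 members with a log2 fold change of at least 0.6 lay in it. Among 14 tested genes of other families that lie between HIST1 members, 3 were called higher and 3 lower, with a median of 0.13. The chromatin protein gene HMGN4 was at 0.20 and the zinc finger gene ZNF322 at -0.32, both called. These 2 were chosen after their values were seen.

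**Figure D2:**
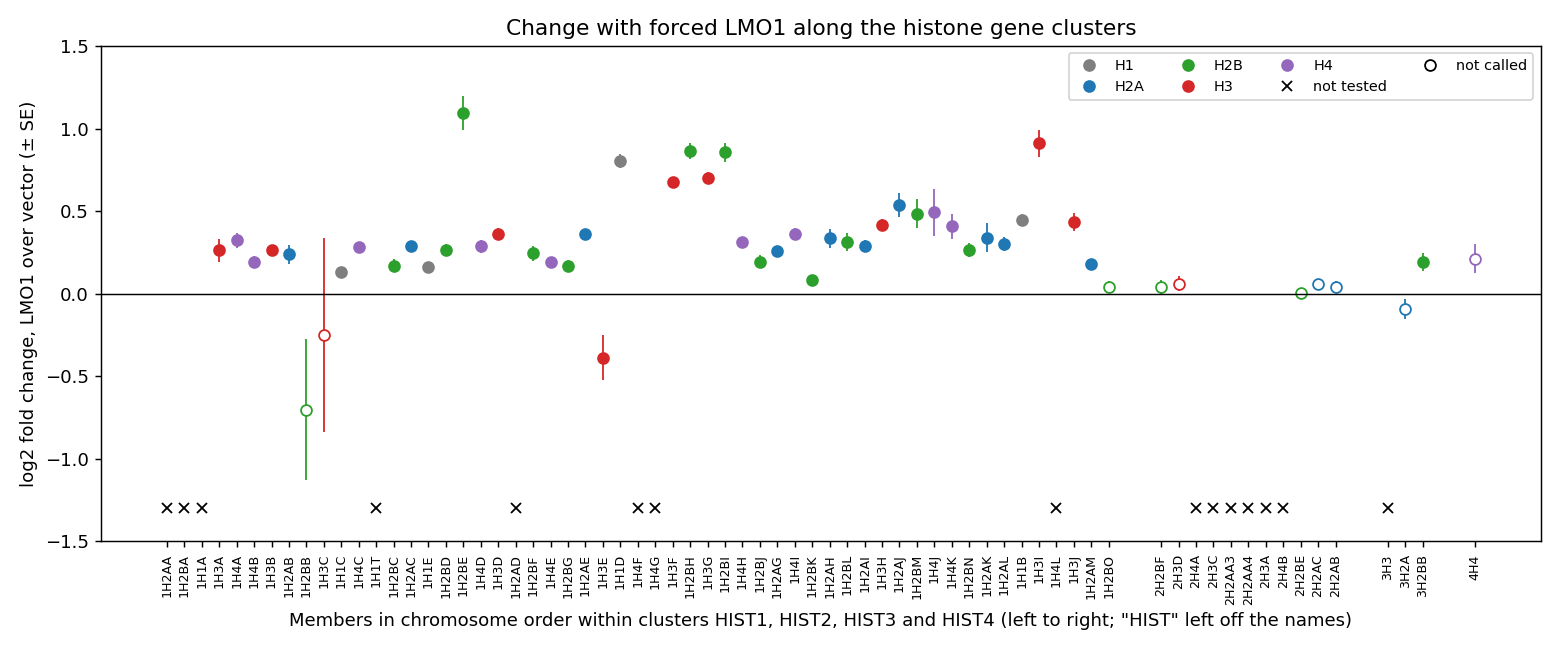
Log2 fold change with forced LMO1 over vector (points, bars are SE) for each member in chromosome order within its cluster, coloured by class; open points were not called and crosses at the bottom mark members not tested. Most HIST1 members lie above 0, the stretch from HIST1H1D to HIST1H2BI reaches 0.68 to 0.86, and the 5 HIST2 points lie between 0.0011 and 0.06.

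Genes that act with these messages had medians close to that of all genes. The counts of each list stand beside 15.9% of all genes tested called higher and 15.1% called lower. Of 28 genes for histone transcription and 3′ end processing, 1 was called higher and 3 lower, with a median log2 fold change of -0.01. SLBP, which binds the stem-loop, had 43.7 and 50.3 CPM in the LMO1 libraries, against 44.7 and 44.9 CPM in the vector libraries, and its adjusted p was 0.449. NPAT, the activator of histone transcription, gave 0.10 (adjusted p = 0.170), its partner CASP8AP2 gave -0.08 (adjusted p = 0.202), and LSM11, a U7 protein, gave 0.15 (adjusted p = 0.314). SNRPD3, a core small nuclear ribonucleoprotein, was called higher at 0.12. Those called lower were SRRT (-0.25) and NCBP1 (-0.11), which serve the capped end of messages, and the cleavage factor CPSF2 (-0.12).

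S phase genes gave 1 call higher and 6 lower of 45, with a median of -0.04. Over all genes tested 15.9% were called higher and 15.1% lower, so the share called lower was near that of all genes. MCM7, a subunit of the replicative helicase, had 427 and 422 CPM in the LMO1 libraries, against 505 and 495 CPM in the vector libraries, a log2 fold change of -0.23 (SE 0.0288, adjusted p = 1.03e-08). MCM2 and MCM5 of the same complex gave -0.13 and -0.14, both called. ASF1B, a chaperone of new H3 and H4, was the one called higher, at 0.29 (adjusted p = 0.00116). Among 24 histone chaperones and carriers, 2 were called higher and 7 lower, with a median of -0.07. NAP1L1, a chaperone of H2A and H2B, was at -0.17, the FACT subunit SSRP1 at -0.21 and the importin IPO4 at -0.35, all called lower. In these bulk libraries, the number of cells in S phase and the histone RNA per cell cannot be told apart.

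Histone genes that are expressed outside S phase were tested in 10 cases, with 3 called higher and 1 lower and a median of 0.03. Of all genes tested, 15.9% were called higher and 15.1% lower. H1F0, a linker histone of resting cells, had 272 and 263 CPM in the LMO1 libraries, against 221 and 224 CPM in the vector libraries, a log2 fold change of 0.27 (SE 0.0344, adjusted p = 1.35e-08). H1FX and H3F3B were called at 0.12 and 0.08, and the macroH2A gene H2AFY2 was called lower at -0.15. H2AFZ and H2AFX gave -0.05 and -0.07 and were not called. H3F3A had no count in the modified libraries and was not tested. The small structured RNAs, which share with the members the lack of a poly(A) tail, had 3 called higher and 6 lower of 16, with a median of -0.03. TERC, the telomerase RNA, was called higher at 0.35, and the Cajal body RNAs SCARNA10 and SCARNA2 were called lower at -0.24 and -0.32.

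**Figure D3:**
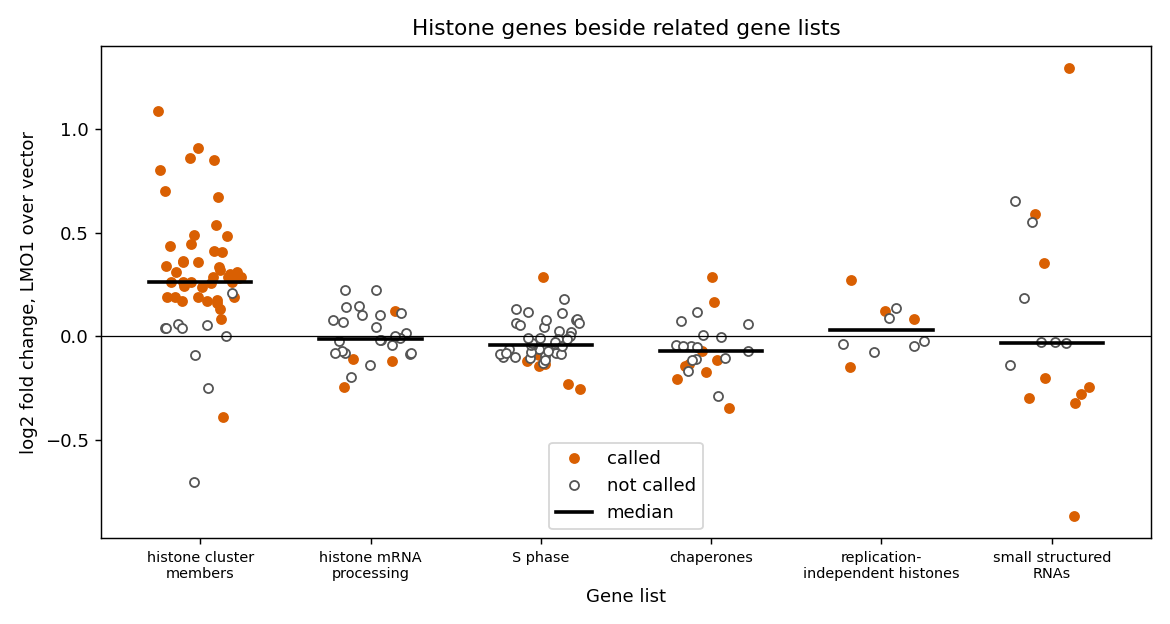
Log2 fold change with forced LMO1 over vector for the tested histone members and 5 related gene lists; filled points were called, open points were not, and bars are medians, with points spread sideways for legibility. The histone members have a median of 0.26, while the medians of the other lists lie between -0.07 and 0.03.

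Unmodified BE2C cells were then set beside the vector cells, with a single parental library and therefore no test. This comparison shares the vector libraries with the one above. All members together summed to 411.7 CPM in parental BE2C (exact Poisson interval 406 to 417 CPM, counting error only), against a vector mean of 10223 CPM, which is 24.8-fold lower. All 53 members with at least 5 CPM on either side were at least 2-fold lower in parental BE2C, when 2.58% of all genes were. None was at least 2-fold higher, when 8.79% of all genes were. Their median log2 ratio of CPM with 1 added was -5.65, against 0.05 for all genes. H4 genes had the lowest share left of the 5 classes, at 12.9 CPM in parental BE2C and 1766 CPM in the vector mean, or 0.731%. H2B genes had the highest, with 253 CPM in parental BE2C and 2700 CPM in the vector mean, or 9.36%. H1, H2A and H3 stood at 3.62%, 2.08% and 1.91% of their vector means. These shares are those of the sums, to which a few genes can give much. In parental BE2C, HIST1H2BK had 113 CPM and HIST2H2BE had 71.7 CPM, much of the H2B sum. Most H2B members had a smaller share left than the H2B sum, so its rank does not describe the class member by member.

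None of the S phase genes was at least 2-fold lower in parental BE2C (0 of 45, median log2 ratio -0.08). Nor was any of the 27 histone processing genes or the 10 replication-independent histone genes measured. Over all genes 2.58% were, so counts of 0 in lists of this size are near that share. At least 2-fold higher were 1 S phase gene and 2 histone processing genes, when 8.79% of all genes were. H2AFZ, for example, had 441 CPM in Kelly, 317 CPM in parental BE2C and 389 and 408 CPM in the vector libraries. The 12 small structured RNAs with at least 5 CPM on either side were lower, as the histone members were, with a median log2 ratio of -6.50. Their part in the result was not tested.

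Members differed widely in how much of the vector level was left. Over the 54 members with at least 20 counts in each vector library, Kelly held a median of 0.503% of the vector mean, from 0 to 21.2%, and the parental library a median of 0.924%, from 0 to 42.5%. At least 25% was left in Kelly for none of them and in parental BE2C for 3. HIST1H3E had 1.90 CPM in Kelly, 5.46 CPM in parental BE2C and 13.7 and 11.99 CPM in the vector libraries, and the parental library thus held 42.5% of the vector mean. HIST1H2BK had 27.6 CPM in Kelly, 113 CPM in parental BE2C and 419 and 435 CPM in the vector libraries, which left 6.46% in Kelly and 26.4% in the parental library. HIST3H2A, the member with the most left in Kelly, had 13.3 CPM in Kelly, 16.03 CPM in parental BE2C and 62.2 and 63.03 CPM in the vector libraries, or 21.2% in Kelly and 25.6% in the parental library. Just outside that limit was HIST1H2BB at 18.2%, a value that rests on 12 parental counts and 30 to 34 counts in each vector library. These shares are a description, since they were used to pick the genes named.

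At least 5% was left in Kelly for 4 members and in parental BE2C for 11. HIST1H2BD had 15.7 CPM in Kelly, 31.8 CPM in parental BE2C and 200.3 and 208 CPM in the vector libraries, or 15.6% in the parental library. HIST2H2BE had 7.37 CPM in Kelly, 71.7 CPM in parental BE2C and 547 and 560.3 CPM in the vector libraries, or 1.33% in Kelly and 12.9% in the parental library. The other members with at least 5% left in parental BE2C were HIST2H2BF at 11.04%, HIST1H2AK at 10.5%, HIST2H3D at 10.04%, HIST1H1C at 7.68% and HIST1H2AC at 6.13%, and the next below was HIST1H2BE at 4.16%. HIST2H2BF overlaps FCGR1A and HIST1H2AK overlaps HIST1H2BN on the other strand. Of the 11 members with at least 5% left in parental BE2C, 5 were called higher with LMO1, 1 lower and 5 not called. Over all genes tested, 15.9% were called higher and 15.1% lower.

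The members that stayed detected were set beside features of their transcripts. Of the 11, 7 were on a list of 11 members known to give polyadenylated RNA. The list was chosen with earlier results of these data known, so the overlap is a description. HIST1H3E, the member with the most left in parental BE2C (42.5%), was not on it. In Kelly the whole list had a median of 1.94% left, against 0.421% for the other 43 members. In parental BE2C it had a median of 7.68%, from 1.14% to 26.4%, against 0.731% for the others. With LMO1, 8 of the 11 listed genes were called higher, when 15.9% of all genes tested were, and 3 were not called. Their median log2 fold change was 0.17. Among members with an annotated stem-loop and at least 20 counts in each vector library, 16 had a transcript running over 300 bases past it. These 16 had a median of 3.25% left in parental BE2C. The 8 with at most 300 bases past it had 0.895%. Only transcripts that hold the stem-loop entered this measure, so longer transcripts without it were left out. The stem-loops printed above show that the site itself is present in HIST3H2A and HIST2H2BE, 2 of the members with the most left, and in HIST1H4E, with 0.276% left. HIST1H2BD, with 15.6% left, has 39 annotated bases past the stem-loop, and HIST2H2BE has 1729. Another annotated transcript of HIST1H2BD, without the stem-loop, runs 384 bases past the stop codon. At the low end, HIST1H4C had 0.269 CPM in Kelly, 0.105 CPM in parental BE2C and 299 and 291 CPM in the vector libraries, and HIST1H3F had 0.0336 CPM in Kelly, 0.0837 CPM in parental BE2C and 249.9 and 251 CPM in the vector libraries.

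**Figure D4:**
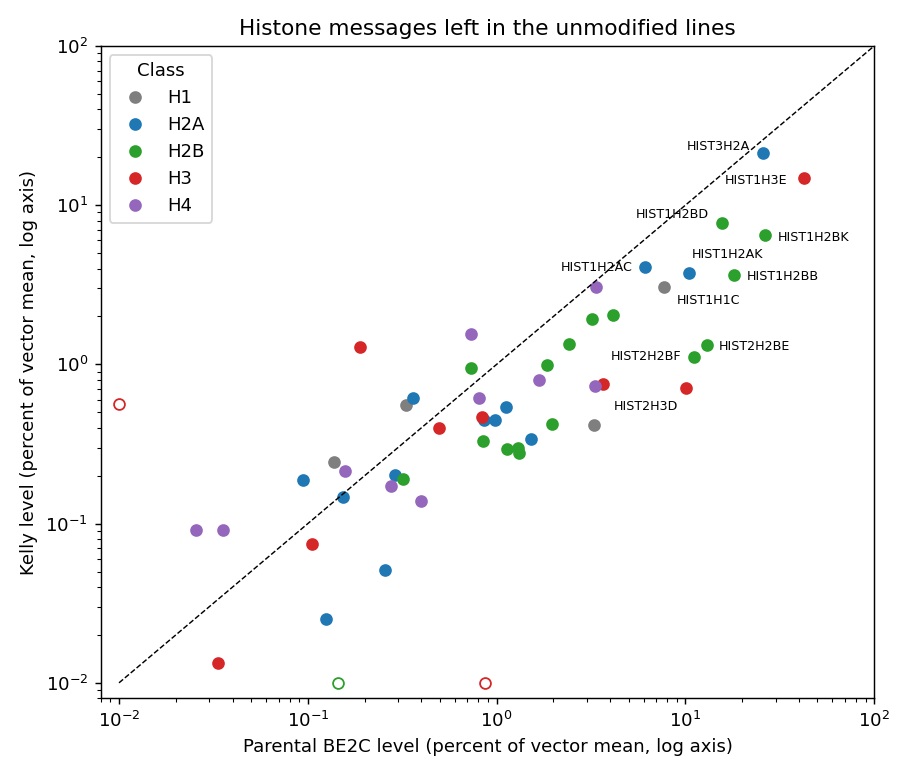
Level left in Kelly (y axis) and in parental BE2C (x axis) for the 54 members with at least 20 counts in each vector library, as percent of the vector mean on log axes; open points had no count in one line and are drawn at 0.01%, and the dashed line marks equal levels. The 11 named members have at least 5% left in parental BE2C, and 43 of the 54 members lie below the line. The share of all genes below such a line was not computed.

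Kelly was compared with parental BE2C, again with 1 library a side and no test. The members summed to 133.9 CPM in Kelly (exact Poisson interval 131 to 137 CPM) and to 411.7 CPM in parental BE2C, which is 3.07-fold lower in Kelly. Of 11 members with at least 5 CPM on either side, 8 were at least 2-fold lower in Kelly and 0 at least 2-fold higher, when 13.4% of all genes were lower and 15.3% higher. The median log2 ratio was -1.67 over these members and -0.03 over all genes. With members down to 1 CPM included, 13 of 30 were at least 2-fold lower. The share over all genes was not computed at that minimum. Kelly held 21.9% of the parental sum in H3, 24.1% in H2B, 43.6% in H1, 46.1% in H4 and 65.3% in H2A.

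A few genes made up much of these sums. HIST1H2BK had 27.6 CPM in Kelly and 113 CPM in parental BE2C, and HIST2H2BE had 7.37 CPM in Kelly and 71.7 CPM in parental BE2C. HIST1H1C had 24.8 CPM in Kelly and 62.5 CPM in parental BE2C. HIST3H2A differed less, at 82.8% of the parental level in Kelly, with 13.3 CPM in Kelly (exact Poisson interval 12.4 to 14.2 CPM) and 16.0 CPM in parental BE2C (14.9 to 17.2 CPM). HIST1H3G had no count in Kelly, which allows up to 0.0503 CPM, and 1.61 CPM in parental BE2C. Over the 27 members with at least 100 counts in both libraries together, 26 were lower in Kelly. The exception, HIST1H1E, had 3.83 CPM in Kelly and 2.28 CPM in parental BE2C. The share of all genes lower in Kelly by direction alone was not computed, so this count is a description.

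Related genes were read in the same comparison. Of 45 S phase genes, 7 were at least 2-fold lower in Kelly, a share near the 13.4% of all genes, with a median log2 ratio of -0.47, against -0.03 over all genes. Of 28 histone processing genes, 7 were at least 2-fold lower and 2 higher. SLBP had 20.1 CPM in Kelly and 44.2 CPM in parental BE2C, and ASF1B had 8.19 CPM in Kelly and 37.99 CPM in parental BE2C. The histone gene H2AFX, whose message can also end at a stem-loop, had 17.8 CPM in Kelly and 74.1 CPM in parental BE2C, while H1F0 had 657 CPM in Kelly and 341 CPM in parental BE2C. The part of these genes in the histone difference was not tested. With the members near the lower limit of detection in both lines, the comparison rests on the few that stay detected.

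**Figure D5:**
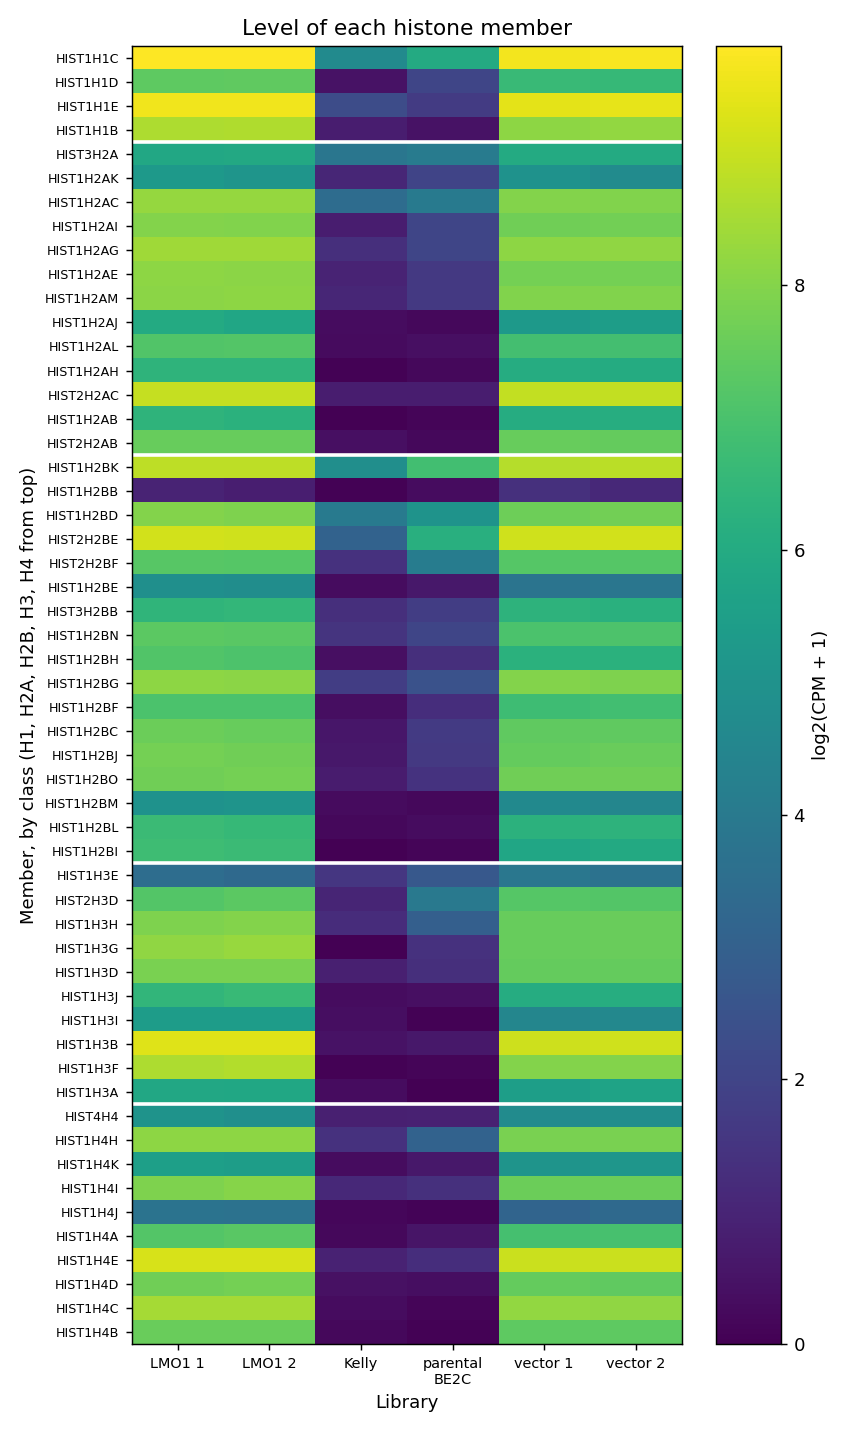
Level of each member with at least 100 counts over the 6 libraries, as log2(CPM + 1) by colour, in rows by class and, within a class, by the percent left in parental BE2C (highest first). The LMO1 and vector columns are bright for nearly every gene. In the Kelly and parental columns HIST1H1C, HIST3H2A and HIST1H2BK have the highest level of their classes. Rows follow the percent left and not the CPM, so some upper rows, such as HIST4H4 and HIST1H2BB, are low in both columns.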

How the data were processed

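The authors deposited raw read counts by gene symbol for the 6 libraries, without normalization. The submitters' processing notes list TopHat2 2.0.6, HTSeq and hg19. The annotation, the strand setting and the handling of reads with several matches are not given in the sources used here, and these bear on near-identical histone genes. Per the labels' protocols, a stranded total RNA kit was used for every library.

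Counts were scaled by TMM and tested with edgeR 4.0.16 in R 4.3.3 (filterByExpr, quasi-likelihood F test, Benjamini-Hochberg adjustment over 15480 genes, called below 0.05), with LMO1 and vector libraries alone in the fit. The filter removed 9890 genes. SE is the log2 fold change divided by the square root of F. CPM values use TMM factors over all 6 libraries. Parental BE2C and Kelly, with 1 library each, were compared by log2 ratios of CPM with 1 added, where either side reached 5 CPM, and called past 2-fold. A count of 0 allows 3 counts, which is 0.157 CPM at the lowest depth and 0.0503 CPM at the highest. Intervals (95%, exact Poisson) and these floors cover counting error only. Chi-square over degrees of freedom was 2.84 within LMO1, 2.70 within vector and 18.5 between LMO1 replicate 1 and vector replicate 1, so each replicate was counted separately. The common biological coefficient of variation was 3.60%, with 2 residual and 43.7 prior degrees of freedom.

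Members, gene lists and rules were chosen with earlier results of these data known. The members named were the 4 highest in mean CPM of each class, the 5 highest and 5 lowest fold changes among those called, any called lower, those left at 25% or more in both unmodified lines (there were 0), and the 3 highest in Kelly, and of each list up to 4 called genes with the lowest adjusted p and 9 genes of interest. Other members are named to account for the set or after their values were seen. Sequences came from GENCODE release 29 transcripts and RefSeq promoters, and all 70 members matched a GENCODE gene. The fit was tested on simulated data. Alternatives were DESeq2 1.42.0, other scalings, no filter, all 6 libraries in the fit, each replicate left out, a replicate block, another pseudocount (0.25 CPM) and another minimum (1 CPM).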

Additional observations from a re-analysis of the deposited data

How the results depend on the processing

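Members called higher with LMO1 numbered 40 to 44 with a replicate left out, and genes called in all numbered 3493 to 3636, against 4797 with all libraries. DESeq2 called 3544 genes. Members called lower numbered 0 with DESeq2 and 0 to 1 with a replicate left out. HIST2 members called numbered 1 with total-count scaling (HIST2H2AC, log2 fold change 0.08). HIST2H2BE, at 0.0011, turned to -0.0014 with DESeq2 size factors, -0.0035 without the filter, -0.0047 with DESeq2 and -0.0041 with all 6 libraries, and ran from -0.023 to 0.022 with a replicate left out. The log2 ratio of the H2A sums, 0.20, was 0.19 with DESeq2 size factors, 0.24 with total counts and 0.21 without HIST1H3E, HIST1H2BK and HIST3H2A. With total counts, the H2B ratio of 0.18 became 0.21 and the H4 ratio of 0.26 became 0.29. These sum ratios kept their direction, and the cause of each shift was not tested. Kelly was at least 2-fold lower than parental BE2C in 13 of 30 members with a minimum of 1 CPM. With a minimum of 5 CPM fewer members entered, and 8 of 11 were lower. LMO1 and vector libraries with the same number did not deviate together (correlation -0.021 over the genes tested), and the main fit used no pairing. So few libraries cannot show that they were unpaired. With a replicate block, 44 members were called higher and 1 lower, with 4847 genes called in all. Over the named members, 263 of the values under alternatives kept direction and call, 5 lost the call, 1 gained it and 6 changed sign. The unmodified libraries were the deepest, yet some members had few counts there (HIST1H3F had 2 in Kelly and 4 in parental BE2C), so their ratios carry a large counting error.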
